A study of Nasturtium officinale with 24 samples.

Results

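The 80 transcript contigs described here were high under water on the first day and lower, relative to air, on the second day in petioles and in stems of watercress (Nasturtium officinale), a crucifer that grows at the edge of water. They were 80 of the 80741 contigs in the tables. They were chosen by their measured values: counts were turned into CPM, counts scaled to the same total in every library, and averaged per group, and the response was the log2 ratio of submerged to air levels after adding 1 CPM to each. A contig needed a mean of at least 4 CPM over the 8 groups, a response of at least 1 at 1 day in both tissues, and responses at 1 day that differed by less than 2 between the tissues. Of 25997 contigs with the mean level, 1484 met every condition. The 80 were those with the highest value of the smaller of 2 drops, the response at 1 day minus that at 2 days in petioles and the same in stems. Every response and drop below is therefore a description of what was chosen, and the measurements that the choice did not use are named as such.

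RNA sequencing of 24 libraries gave the abundance of each transcript contig. Plants about 3 weeks old were submerged completely, or kept in air as controls, for 1 day or 2 days, at 23 °C with 8 h of light in each cycle and 16 h of dark. Stems and petioles (leaf stalks) were harvested separately, so that 2 tissues, 2 treatments and 2 times gave 8 groups of 3 libraries, and each library came from 5 pooled plants. The labels give no cultivar, no genotype and no transgene. Since a library is a bulk tissue, fewer cells of a type and less RNA per cell cannot be told apart. Library totals ranged from 17617430 to 48928331 estimated counts, at which 3 counts are 0.0613 to 0.170 CPM. The contigs carry accession-like identifiers and no gene names, so that roles, pathways and tissue markers could not be read from them and the identity of the stems and petioles was not checked against markers. The labels do not say whether stems and petioles with the same replicate number came from the same plants.

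As background, gases diffuse slowly in water. Oxygen runs short in submerged tissue, above all in the dark, while the gaseous hormone ethylene builds up. In Arabidopsis, low oxygen stabilises transcription factors of the ethylene response factor family that switch on genes of fermentation and sugar use, and many such transcripts appear early in a flood. Semi-aquatic plants can respond by elongating stems or leaf stalks towards the surface. Which of these processes, if any, the 80 contigs belong to is not known from the data used here.

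The 80 contigs together went from a low level in air to a high one under water at 1 day and lay in between at 2 days. In petioles their summed level at 1 day was 327 CPM in air, against 5189 CPM under water, then 577 and 2556 CPM at 2 days (means of 3 libraries). In stems it was 390 and 4844 CPM at 1 day, then 558 and 1554 CPM at 2 days. No library from air reached the level of any library from under water, with sums of 265 to 687 CPM in air and 1305 to 7238 CPM under water. Medians over the 80 contigs were taken in each group on its own, so they need not belong to 1 contig. At 1 day the median was 2.46 CPM in petioles in air, against 32.9 CPM under water, and in stems 2.14 and 26.1 CPM. At 2 days the medians under water were 19.3 CPM in petioles and 9.50 CPM in stems.

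**Figure D1:**
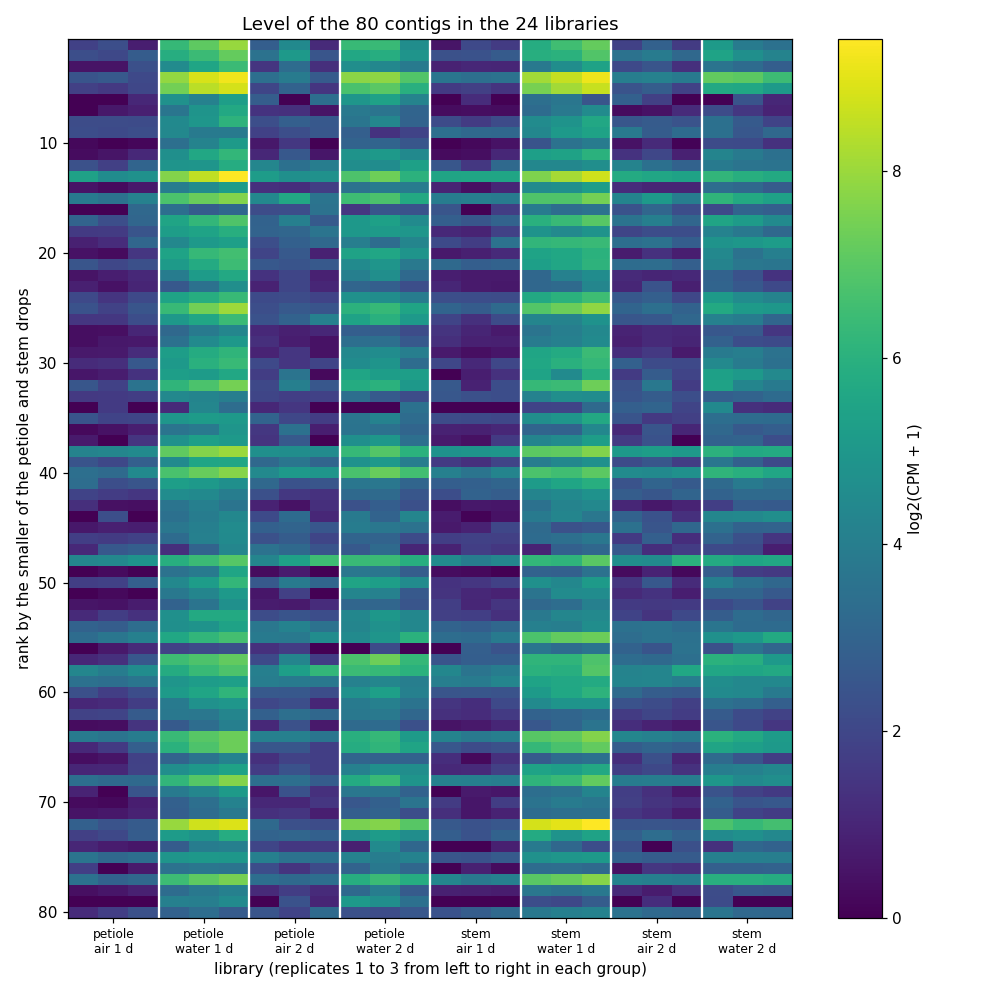
Level of each of the 80 contigs (one line each, from rank 1 at the top to rank 80) in the 24 libraries (columns, 3 per group), as log2(CPM + 1) by colour. The columns of water at 1 day are brightest in both tissues, and those of water at 2 days lie between them and the columns of air. The median over the contigs in water at 2 days was 19.3 CPM in petioles and 9.50 CPM in stems.

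The highest mean of a contig was in petioles under water at 1 day for 48 contigs, in stems under water at 1 day for 28, and under water at 2 days for the other 4. At 1 day petioles had a median response of 3.40 and stems one of 2.99, beside 0.04 and -0.11 over the 25997 contigs. At 2 days it was 1.88 and 1.26, beside 0.08 and 0.06. The median drop was 1.53 in petioles and 1.78 in stems. Scaling by TMM factors, which assumes that most contigs do not change, moved the median response of all contigs in stems at 1 day from -0.11 to -0.011, while that of the 80 went from 2.99 to 3.02, and the median drops of the 80 became 1.60 and 1.90.

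The label of these contigs as transient covers several outcomes at 2 days. In 49 contigs the response was still at least 1 in both tissues, that is, at least 2-fold. In 14 contigs it was under 1 in both tissues, and 5 of these lay within 0.5 of the air level in both. The remaining contigs had a response of at least 1 in a single tissue, so that 64 in all reached it in petioles and 51 in stems. The difference between water and air in CPM left at 2 days was taken per contig as a share of that at 1 day. Its median was 38.9% in petioles and 22.8% in stems. With edgeR, 76 contigs were higher under water at 1 day in petioles and 76 in stems (Benjamini-Hochberg adjusted p under 0.05), where 13.5% and 9.99% of the 53919 contigs tested were higher. At 2 days 52 were higher in petioles and 40 in stems, where the background was 16.3% and 10.4%. Both tissues were called at 2 days for 37 contigs, petioles alone for 15, stems alone for 3 and neither for 25. All 80 contigs passed the filter on low counts, and since the choice used these contrasts, nothing is read from the counts.

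**Figure D2:**
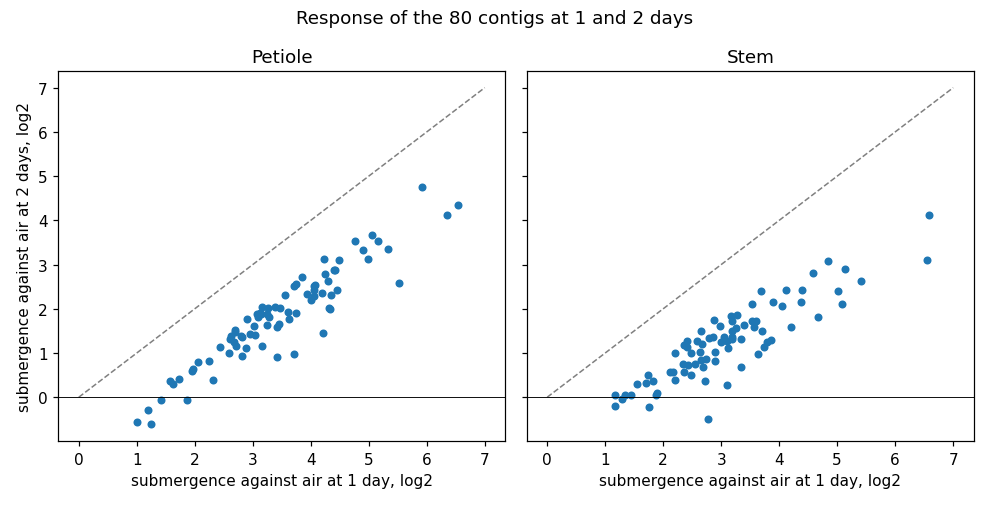
Response to submergence (log2 of submerged over air, after adding 1 CPM) at 1 day (horizontal) and 2 days (vertical) for the 80 contigs in petioles and stems; the dashed line marks equal responses and the solid line no difference from air. All points lie below the dashed line, as the choice required, and spread from 4.76 to -0.61 at 2 days in petioles and from 4.11 to -0.50 in stems.

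The largest drops were those of GEMC01036538.1 (1097 bases) and GEMC01036466.1 (1041 bases). GEMC01036538.1 stood in petioles under water at 1 day at 78.2, 135 and 248 CPM and at 2 days at 79.6, 83.2 and 23.3 CPM. In petioles in air it stood at 2.52, 3.78 and 0.749 CPM at 1 day, then 6.03, 21.3 and 1.16 CPM at 2 days. The libraries of the 2 days overlapped under water, and the control of replicate 2 at 2 days was the highest of the 6 controls. In stems under water it went from 56.4, 91.6 and 145 CPM to 34.4, 14.03 and 10.3 CPM, with no overlap. Its smaller drop was 2.94, with a range of 1.75 to 3.73 when single libraries or replicate numbers were left out, the lowest without that replicate 2 control.

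GEMC01036466.1 was at 56.7, 84.4 and 145 CPM in petioles under water at 1 day, then 48.9, 58.0 and 28.5 CPM at 2 days. In petioles in air it was at 4.22 ± 1.33 CPM at 1 day, then 10.8, 32.3 and 4.63 CPM at 2 days (SD, n = 3). Here too the same replicate 2 control at 2 days was the high one. In stems under water it was at 80.1 ± 31.5 CPM at 1 day, then 28.7 ± 13.4 CPM at 2 days, and its smaller drop was 2.56.

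The most counts at 1 day under water came from GEMC01024297.1 (1848 bases) and GEMC01042104.1 (1017 bases). GEMC01024297.1 stood in stems under water at 444, 528 and 683 CPM at 1 day, then 107, 77.7 and 95.3 CPM at 2 days. In petioles under water it stood at 249, 424 and 490 CPM and then at 183, 203 and 125 CPM. All libraries of 1 day lay above all libraries of 2 days in both tissues. In air its mean stayed between 4.45 and 5.40 CPM in all 4 groups. It also kept the most at 2 days, with responses of 4.76 in petioles and 4.11 in stems, after 5.92 and 6.58 at 1 day. Its smaller drop of 1.16 was 0.76 without replicate 1 of petioles in air at 2 days.

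GEMC01042104.1 reached 238, 461 and 588 CPM in petioles, against 273, 383 and 581 CPM in stems under water at 1 day. At 2 days it was at 220, 224 and 116 CPM in petioles, against 142, 131 and 87.0 CPM in stems. In both tissues the 3 libraries of 1 day lay above those of 2 days. Its level in air was 4.27 ± 0.951 CPM in petioles and 10.8 ± 0.941 CPM in stems at 1 day (SD, n = 3). Levels of contigs of unequal length are comparable only per length, and in the deposited TPM its mean in petioles under water at 1 day was 386, against 175 for GEMC01024297.1 and 668 for GEMC01011130.1.

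GEMC01011130.1 (542 bases) was the other contig with the most left at 2 days. Under water it stood at 171, 343 and 450 CPM in petioles, against 180, 275 and 399 CPM in stems at 1 day. At 2 days it stood at 103, 128 and 60.5 CPM and at 50.7, 47.4 and 34.4 CPM. In air it was between 1.70 and 6.82 CPM in every library. The responses were 6.53 and 6.55 at 1 day and 4.35 and 3.11 at 2 days, so that a drop of 2.19 in petioles and 3.43 in stems still left it far above air.

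At the other end were GEMC01049782.1 (2996 bases) and GEMC01052120.1 (2659 bases), whose responses at 2 days averaged -0.38 and -0.26 over the tissues. GEMC01049782.1 was at 1.40, 6.95 and 19.0 CPM in petioles under water at 1 day, against 1.13, 5.07 and 5.95 CPM in air. Its groups overlapped on both days and in both tissues, and its smaller drop of 1.37 was 0.59 without replicate 3 of petioles under water at 1 day and 0.88 without replicate 1 of stems in air at 2 days. GEMC01052120.1 was at 9.55, 5.77 and 7.81 CPM in petioles under water at 1 day, while 2 of the 3 controls were at or near 0 and the third stood at 8.02 CPM. In stems under water it went from 14.03, 9.27 and 10.6 CPM to 3.20, 7.10 and 6.28 CPM, with no overlap.

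**Figure D3:**
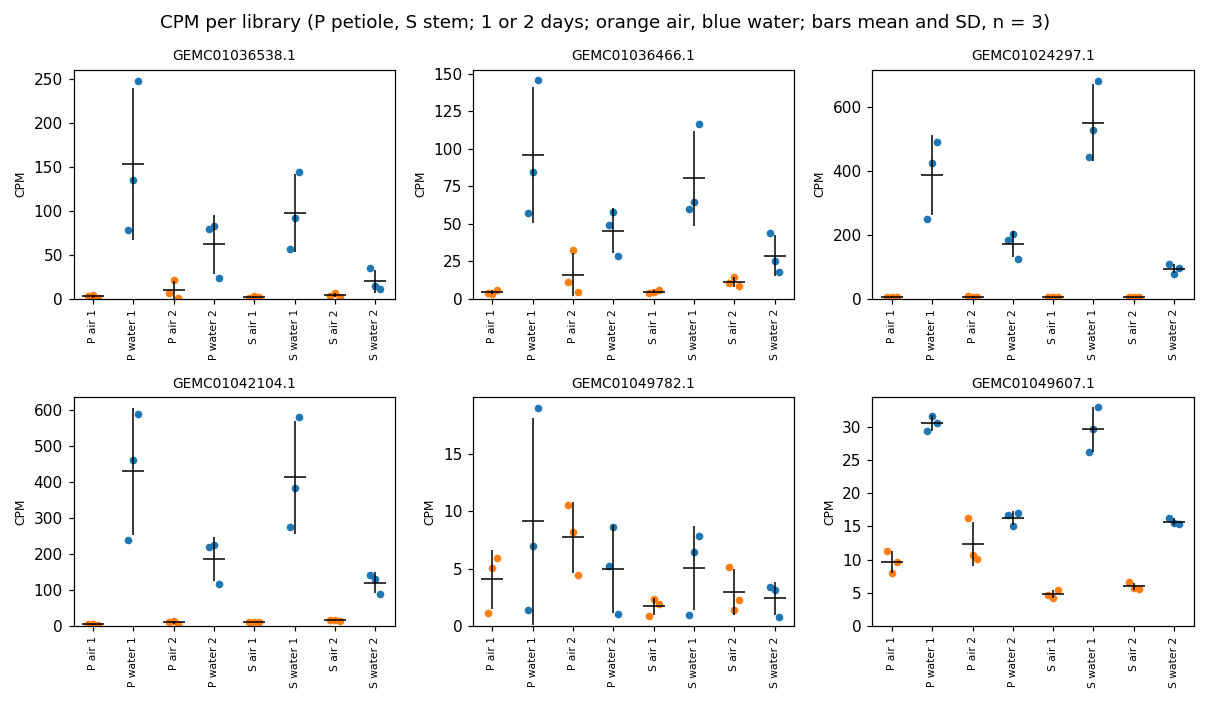
CPM per library (vertical axis, from 0) of 6 of the contigs named in the text, in petioles (P) and stems (S) in air (orange) and under water (blue) at 1 or 2 days; the horizontal mark is the mean and the bar the SD of 3 libraries, ending at 0 where it would pass below. GEMC01049607.1 shows tight groups, with 30.6 ± 1.18 CPM in petioles under water at 1 day, while GEMC01049782.1 spreads from 1.40 to 19.0 CPM in that group.

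A drop between the days can come from a fall under water, from a rise in air, or from both. Under water the level was lower at 2 days than at 1 day in 77 contigs in petioles and in 77 in stems, and in 74 in both. The median change under water was -0.95 in petioles and -1.37 in stems on the log2(CPM + 1) scale, beside 0.01 and 0.10 over the 25997 contigs. In air the level was higher at 2 days in 76 contigs in petioles and 71 in stems, with median changes of 0.65 and 0.46, beside -0.0049 and -0.04. The share of the drop made up by the rise in air had a median of 41.8% in petioles and 23.8% in stems. The fall under water was larger than the rise in air for 45 contigs in petioles and for 67 in stems.

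**Figure D4:**
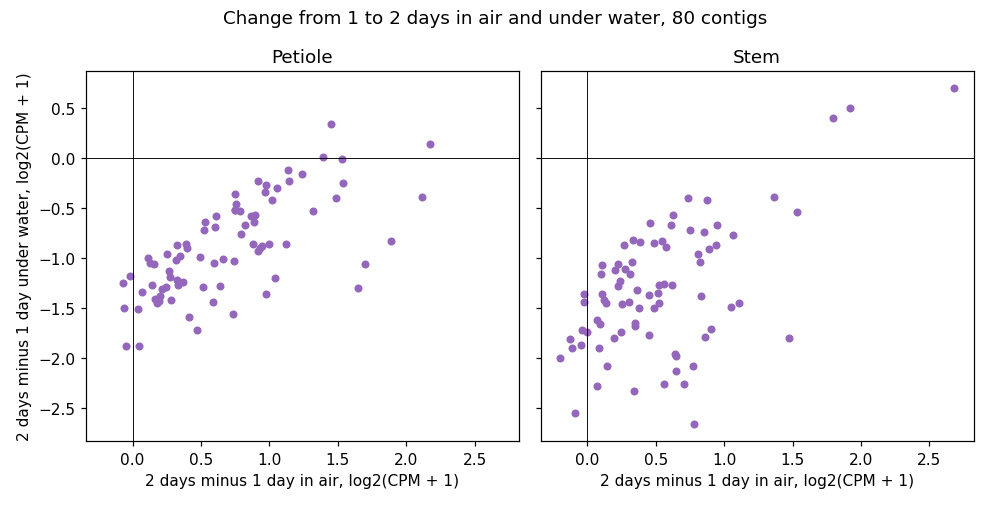
Change from 1 to 2 days in air (horizontal) and under water (vertical), each as the difference of log2(CPM + 1) group means, for the 80 contigs in petioles and stems. Most points lie at a fall under water combined with a rise in air, with medians of -0.95 and 0.65 in petioles and -1.37 and 0.46 in stems; the empty upper left corner, a rise under water with a fall in air, is set by the choice.

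Library by library, stems separated the days better than petioles. All 3 stem libraries under water at 1 day lay above all 3 at 2 days for 70 contigs, where 9.65% of the 25997 contigs did so. In petioles this held for 35 contigs, beside 7.14%, and in both tissues for 34, beside 2.38%. In air all 3 libraries of 2 days lay above those of 1 day for 20 contigs in petioles and 25 in stems, beside 4.0% and 1.87%. With edgeR 15 contigs were lower at 2 days than at 1 day under water in petioles and 34 in stems (adjusted p under 0.05), where 0.716% and 0.786% of all contigs tested were lower; all 15 were among the 34. In air, edgeR called 0 of the 80 contigs higher at 2 days in either tissue, beside a background of 0.013% in petioles and 0.0% in stems. At an unadjusted p under 0.05 the count in air, in either direction, was 34 in petioles and 18 in stems. Over all 53919 contigs tested it was 3875 and 1288. DESeq2 called 8 and 2 higher, where 183 of 50756 contigs were higher in petioles and 17 of 53882 in stems. With limma-voom 0 and 0 were called, and 0 over all contigs. The change of the response itself, the time by treatment interaction, was called for 5 contigs in petioles and 7 in stems, 3 of them in both, where 0.0872% and 0.0445% were called in that direction. Since the choice ranked on these quantities, the counts are descriptive. The fit to the libraries compared alone called 0 contigs lower under water in petioles and 45 in stems. The shares over all contigs in these fits are not given here. No difference between the tissues is therefore read from these counts.

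The controls that rose most between the days were those of GEMC01026190.1 (733 bases) and GEMC01060311.1 (2452 bases). GEMC01026190.1 was at 0.511, 0.753 and 0.729 CPM in petioles in air at 1 day, then 6.43, 7.28 and 4.93 CPM at 2 days. Under water its petiole level was 16.8 ± 5.11 CPM at 1 day, then 12.6 ± 2.00 CPM at 2 days (SD, n = 3). The controls did not overlap between the days, while the submerged libraries did, so that its petiole drop of 2.51 came mostly from air. In stems its level in air went from 0.557, 0.879 and 3.05 CPM to 10.5, 4.54 and 7.89 CPM, beside 5.80 ± 2.35 and 7.97 ± 1.88 CPM under water. GEMC01060311.1 was near 0 in 2 of 3 controls in each tissue at 1 day, and at 2 days stood at 5.85, near 0 and 9.58 CPM in petioles in air. Under water it was at 25.9, 16.7 and 37.7 CPM in petioles at 1 day, then 30.2, 41.0 and 17.6 CPM at 2 days, with no fall of the mean. The smaller drop of GEMC01026190.1, 1.40, was 0.75 without replicate number 1, and that of GEMC01060311.1, 2.03, was 1.26 without number 3.

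The drop was then read in libraries that had no part in the choice. The rule was applied to the libraries of 2 replicate numbers, and the 80 contigs it gave were read in the 8 libraries of the number left out. Of these, 59 were among the 80 when number 1 was left out, 58 for number 2 and 48 for number 3. Drops above 0 in both tissues were found in 58 of 80 contigs in the libraries of number 1, in 71 in those of number 2 and in 58 in those of number 3. The shares were 72.5%, 88.8% and 72.5%, beside 23.9%, 30.9% and 21.3% of all contigs with a mean of at least 4 CPM, and 42.2%, 57.2% and 47.7% of all contigs that met the conditions in the libraries used to choose. The median drop in the unused libraries was 0.77, 1.26 and 1.19 in petioles and 0.94, 1.80 and 1.20 in stems. In the libraries used to choose it had been 1.80, 1.43 and 1.57 in petioles and 2.09, 1.67 and 1.67 in stems, so that 5 of the 6 medians were smaller where the choice had no part. With TMM-scaled totals the counts were 58, 71 and 63, beside 39.0%, 34.2% and 30.7% of all contigs with a mean of at least 4 CPM. Of all contigs that met the conditions, the shares on this scale were 48.4%, 58.1% and 51.7%. The 3 lists share contigs and are not independent of each other.

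The parts of the drop carried over unequally. In the unused libraries the fall of stems under water was found in 72, 74 and 71 of 80 contigs for numbers 1, 2 and 3, with medians of -0.61, -1.27 and -1.37, beside 36.5%, 35.8% and 44.1% of all contigs with a mean of at least 4 CPM. In petioles it was found in 44, 64 and 76 of 80, with medians of -0.07, -0.64 and -1.05, beside 51%, 55.6% and 34.5%. In the libraries of number 1 the share of petiole contigs that fell under water was thus close to that of all contigs. The rise in air was found in petioles in 58, 72 and 29 of 80 contigs, beside 49.3%, 40.7% and 58.9% of all contigs, and in stems in 54, 64 and 31, beside 37.3%, 59.4% and 29.3%. For number 3 the median change in petioles in air was -0.25, where that of all contigs was 0.07. In stems in air it was -0.17 for number 3, where all contigs were also lower, at -0.11. With TMM-scaled totals the medians of petioles under water were 0.01, -0.57 and -1.19, beside 0.03, -0.00067 and -0.0016 over all contigs, so that the median for number 1 lay near 0 on either scale. With the same scaling the fall of stems was found in 72, 74 and 70 contigs, beside 55.2%, 51.5% and 51.0% of all contigs, a larger background than with library totals.

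**Figure D5:**
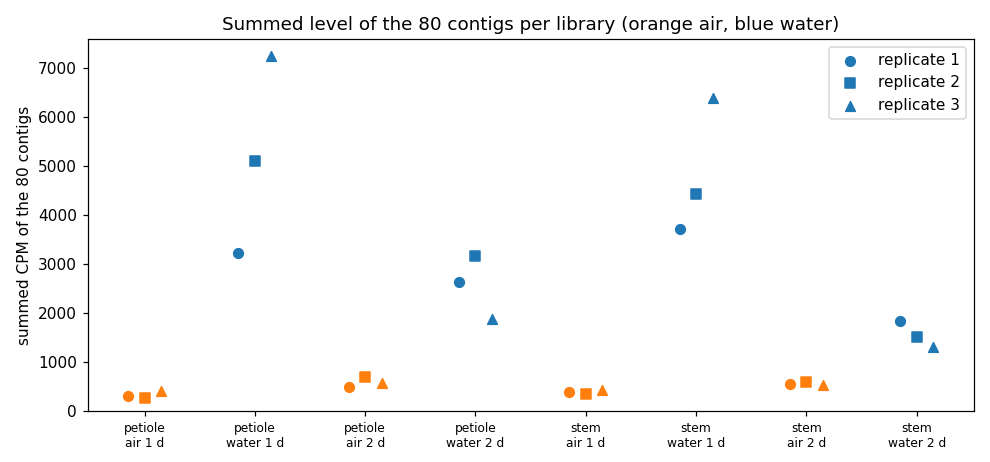
Summed CPM of the 80 contigs (vertical axis, from 0) in each library, by group; circles, squares and triangles stand for replicate numbers 1, 2 and 3. Under water at 1 day number 3 is the highest library in both tissues (7238 CPM in petioles, 6380 CPM in stems) and at 2 days the lowest (1868 and 1305 CPM). In air at 1 day number 3 is also the highest (407 and 427 CPM).

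In all 8 groups, replicates of the same group differed more in these contigs than in the median contig over all 25997. The summed level in petioles under water at 1 day was 3221, 5107 and 7238 CPM in replicates 1, 2 and 3, and in stems 3717, 4433 and 6380 CPM. At 2 days under water it was 2638, 3161 and 1868 CPM in petioles, against 1843, 1514 and 1305 CPM in stems. Replicate 3 was thus the highest library under water at 1 day and the lowest at 2 days in both tissues. In air at 1 day replicate 3 was also the highest. Petioles in air had 407 CPM there, beside 309 and 265 CPM in replicates 1 and 2, and stems 427 CPM, beside 398 and 347 CPM. At 2 days in air replicate 3 was the lowest in stems, at 532 CPM, but not in petioles, at 563 CPM beside 481 and 687 CPM. Replicate 3 was the highest of its group under water at 1 day for 67 of the 80 contigs in petioles and 68 in stems. It was so in both tissues for 58, or 72.5%. In air at 1 day it was the highest for 55 contigs in petioles and 36 in stems. The share in both tissues under water was 12.6% over the 25997 contigs and 40.9% over the other 1404 contigs that met the conditions. The choice used the means of these libraries, so that a high library at 1 day also favoured a contig. The median SD of log2(CPM + 1) between replicates was 0.56 in petioles and 0.39 in stems under water at 1 day. It was 0.30 and 0.19 for the other 1404 contigs and 0.23 and 0.15 over all 25997. Under water at 2 days the 80 had 0.44 and 0.40, beside 0.24 and 0.23, then 0.20 and 0.15. In air at 2 days they had 0.44 and 0.36, beside 0.24 and 0.22, then 0.23 and 0.18. In air at 1 day the 80 were near the other 1404, with 0.35 and 0.26, beside 0.35 and 0.24, then 0.26 and 0.18. Without replicate 3 of both tissues under water at 1 day, the median drop was 1.27 in petioles and 1.54 in stems, all 80 contigs kept both drops above 0, 57 had both at 1 or more, and 65 were still among the first 80. The part of harvest, plants or library preparation in this spread was not tested.

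Stem against petiole in air is a contrast that the choice did not use as such. Its libraries did enter the responses and, at 1 day, the limit on their difference between the tissues. The tests below are therefore not independent of the choice. The share of the 80 called in the contrast was near that of all contigs. At 1 day 4 of the 80 contigs were called by edgeR (adjusted p under 0.05), 2 higher and 2 lower in stems, where 8.26% of all contigs tested were called in either direction. At 2 days 6 were called, 1 higher and 5 lower in stems, where 9.77% were called. The shares of the 80 were 5% and 7.5%. With library totals alone 11 contigs were called at 1 day, or 13.8% beside 12.4% of all contigs, and with DESeq2 9, or 11.3% beside 11.4%, so that nothing particular to the 80 is read from the counts. GEMC01049607.1 (1255 bases) and GEMC01039876.1 (1243 bases) were called on both days, and both were lower in stems.

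GEMC01049607.1 stood in air at 11.3, 8.04 and 9.61 CPM in petioles, against 4.65, 4.18 and 5.45 CPM in stems at 1 day, with no overlap. At 2 days it stood at 16.2, 10.7 and 10.1 CPM in petioles, against 6.56, 5.65 and 5.59 CPM in stems, again apart. The log2 difference was -1.21 ± 0.17 at 1 day (SE; edgeR, adjusted p = 9.3e-05) and -1.24 ± 0.17 at 2 days (edgeR, adjusted p = 4.4e-05), lower in 3 of 3 stem libraries on each day. Under water the tissues were nearly level, at 30.6 ± 1.18 CPM in petioles and 29.6 ± 3.45 CPM in stems at 1 day, then 16.3 ± 1.09 and 15.7 ± 0.484 CPM at 2 days (SD, n = 3). At 1 day petioles had a response of 1.57 and stems one of 2.41, 1 of the most stem-weighted among the 80, and the tightness of its groups is shown in the plot of named contigs.

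GEMC01039876.1 stood in air at 2.58, 2.77 and 5.59 CPM in petioles, against 1.49, 1.29 and 2.04 CPM in stems at 1 day. Stems were lower by a log2 difference of -1.36 ± 0.35 (SE; edgeR, adjusted p = 0.016). Over 33 other fits the adjusted p ranged from 0.0021 to 0.12. The call ended in 5 of them, with limma-voom (adjusted p = 0.086), with only the libraries compared (edgeR, adjusted p = 0.11), and without replicate 1 or 2 of stems (edgeR, adjusted p = 0.069 and 0.076) or replicate 3 of petioles (edgeR, adjusted p = 0.12) in air at 1 day. At 2 days it stood at 6.38, 9.89 and 7.96 CPM in petioles, against 2.11, 2.88 and 2.19 CPM in stems, a difference of -1.96 ± 0.34 (edgeR, adjusted p = 0.00067).

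Under water, 4 contigs were called between the tissues at 1 day, all lower in stems, where 6.34% of contigs tested were lower. At 2 days 18, or 22.5%, were lower in stems and 0 higher, where the background was 9.43% lower and 9.3% higher. The response was stronger in petioles than in stems for 56 of the 80 contigs at 1 day and for 68 at 2 days. These were 70% and 85%, beside 69.9% and 76.9% of the other 1404 contigs that met the conditions, so with library totals the lean towards petioles at 1 day had the same share there. The drop was larger in stems for 53 contigs, or 66.3%, beside 61.7%. With TMM-scaled totals these counts were 52, 66 and 59, or 65%, 82.5% and 73.8%, beside 59.9%, 77.1% and 71.8% of the other 1404 contigs. Over all 25997 contigs the share with a stronger response in petioles at 1 day was 70.6% with library totals and 51.2% with TMM-scaled totals, so the share depended on the scaling.

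The contigs with the most petiole-weighted response at 1 day were GEMC01026190.1 and GEMC01063491.1 (986 bases). GEMC01063491.1 was below 3 counts in all 6 libraries in air at 1 day and reached 16.2, 15.3 and 21.7 CPM in petioles, against 3.73, 3.09 and 5.63 CPM in stems under water. Its petiole libraries under water at 2 days stood at 33.5, 24.4 and 10.2 CPM, higher in the mean than at 1 day, and the drop of 1.11 in petioles came from controls of near 0, 4.24 and 0.959 CPM at 2 days. Its smaller drop ranged from 0.22, without replicate 2 of petioles in air at 2 days, to 1.94, without replicate number 1, and was 0.37 without replicate number 2. GEMC01060920.1 (2138 bases) was the most stem-weighted, with responses of 2.44 in petioles and 3.54 in stems. Under water, petioles stood at 71.8 ± 24.1 CPM at 1 day, against 38.1 ± 22.1 CPM at 2 days, and stems at 135 ± 25.7 CPM, against 36.1 ± 13.5 CPM (SD, n = 3), while its controls stood between 8.86 and 23.2 CPM. Here replicate 3 was the highest library under water at 2 days, at 63.2 CPM in petioles and 51.4 CPM in stems.

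Several contigs had accession numbers close to each other, which the choice did not use. When numbers at most 5 apart were joined, 34 of the 80 fell into 11 runs and 46 stood alone, 57 units in all. No matching share for other contigs is given here, so nothing is read from the number in runs. The largest run held 5 contigs of 1124 to 2238 bases, from GEMC01059319.1 to GEMC01059325.1, with responses at 1 day of 3.12 to 4.45 in petioles and 2.99 to 4.21 in stems. A run of 3 short contigs (378 to 623 bases) ended with GEMC01011130.1, and a run of 4 held GEMC01042104.1. Whether contigs of a run belong to 1 gene is not given. Contigs with alike sequences share reads in the counting, so the 80 contigs may not be 80 genes. Of 36 other contigs whose numbers lay inside or next to a run, 12 had a mean of at least 4 CPM, and 5 of these were above air in both tissues at 1 day, where 36.1% of the 25997 contigs were. With 1 contig for each run, the one with the highest mean, petioles had a median response of 3.29 at 1 day and stems one of 2.89, and the median drop was 1.44 and 1.76.

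In length and in the mean over the 8 groups the 80 contigs were not far from the rest, but in air they were lower. They measured 209 to 3055 bases with a median of 1220, beside 1229.5 for the other 1404 contigs that met the conditions and 1399 over all 25997. Their median of the mean over the 8 groups was 13.997 CPM, beside 17.5 and 13.9 CPM. The choice set a minimum on that mean, which includes the groups under water at 1 day where the 80 were chosen to be high. Nothing is read from its closeness. In air the median was 3.76 CPM, beside 6.99 and 13.3 CPM, and 20 contigs were under 1 CPM in both tissues in air at 1 day. Estimated counts were whole, within 1e-06, in every library for 17 of the 80, or 21.3%, beside 15.7% and 14.7%; for the others some reads were split between contigs.

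The last contig inside the choice was GEMC01060923.1 (782 bases) with a smaller drop of 1.108, and the first outside was GEMC01039032.1 (1556 bases) with 1.102. GEMC01060923.1 had responses of 1.19 and 1.17 at 1 day and was back at the level of air at 2 days, with 4.14 ± 0.648 CPM under water beside 5.31 ± 3.00 CPM in air in petioles (SD, n = 3). GEMC01039032.1 rose more, from 1.27 ± 1.24 to 29.7 ± 9.29 CPM in petioles at 1 day, and kept more. The border of the choice thus separated contigs of nearly equal drop.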

How the data were processed

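RNA was sequenced from 24 libraries of stems and petioles, non-strand-specific (BrAD-seq) with paired reads of 100 bp, per the labels' protocols. The submitters' processing notes name kallisto, edgeR and limma; versions, transcriptome and filters on reads were not given in the sources used here. The deposited tables give, per the file headers, the length, effective length, estimated count and TPM of each contig. The estimated counts deposited by the authors are not normalised, and the TPM values deposited by the authors adjust for effective length; TPM was used only to compare levels and as an alternative.

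CPM was computed from estimated counts and library totals. For tests, estimated counts were rounded; edgeR 4.0.16 (filterByExpr, minimum count 10, minimum total 15; TMM; 1 mean per group; glmQLFit, glmQLFTest) tested 53919 contigs in 14 contrasts, with Benjamini-Hochberg adjustment over all of them. R was 4.3.3, limma 3.58.1 and DESeq2 1.42.0. SE were derived from the F statistic. TMM factors ranged from 0.826 to 1.19, and the fits were tested on simulated data. Named contigs are the extremes of the drop, the level, the remaining response, the tissue difference and the change in air, at most 2 per direction, with the contigs at the border. The first and last contig of a run were named after their values were seen. The members and lists were chosen with earlier results of these data known. Gene lists and cell markers could not be used because no contig has a gene name. Depth limits cover counting error only. Every same-numbered pair of deviations from the group means correlated above 0.1 in 2 of 28 pairs of groups. These were petioles in air at 1 day with petioles under water at 1 day (0.43, 0.14 and 0.32) and with petioles in air at 2 days (0.30, 0.17 and 0.23). Whether replicate numbers pair the libraries is not settled by these correlations. The labels name no shared plants.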

Additional observations from a re-analysis of the deposited data

Results flagged for a closer look

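The contigs were ranked on the change of the response between the days, so the time by treatment interaction describes values that the choice used, and no test is read from it. It passed edgeR's threshold for 4 of the contigs named. In stems the log2 difference of the responses (2 days minus 1 day) was -2.65 ± 0.43 for GEMC01024297.1 and -3.87 ± 0.66 for GEMC01011130.1 (SE). For GEMC01049607.1 it was -1.33 ± 0.23 in petioles and -1.41 ± 0.23 in stems. For GEMC01026190.1 it was -3.69 ± 0.72 in petioles, with the change in the controls given above. Without number 3 under water at 1 day, the interaction was called for 0 of the 80 contigs in petioles and 2 in stems, in place of 5 and 7. That fit had fewer libraries for every contig, and its counts over all contigs are not given here. Nothing particular to the 80 is read from the change.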

How the results depend on the processing

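Counts are of the 80 contigs, and a count is taken to move when it changes by over 1.5 times. Calls over all contigs also changed with the tool, so nothing particular to the 80 is read from a moved count. The choice itself kept 53 of the 80 with a minimum of 8 CPM and 48 to 78 with single libraries or a replicate number left out, the lowest without replicate number 3. The count raised by submergence stayed within 1.5 times under every alternative run, at 74 to 76 in petioles at 1 day, 44 to 57 at 2 days, 73 to 77 in stems at 1 day and 28 to 43 at 2 days with a library left out.

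The counts that rest on the difference between the days moved most. The interaction in petioles, 5 contigs, became 3 with no filter on low counts, 28 with DESeq2, 2 with limma-voom, 1 with only the libraries compared and 0 without number 3 under water at 1 day, an alternative added after seeing the data, and ranged from 0 to 9 with a library left out. In stems, 7 became 12 with library totals alone, 13 with a stricter filter, 43 with DESeq2, 30 with only the libraries compared and 2 without number 3 under water at 1 day, and ranged from 0 to 14. In petioles the lowest came without replicate 2 under water or in air at 1 day and the highest without replicate 1 under water at 1 day. In stems the lowest came without replicate 1 of stems in air at 1 day and the highest without replicate 1 of petioles under water at 1 day. Leaving out 15 libraries in turn moved the count in petioles and 11 that in stems.

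The 15 contigs lower at 2 days under water in petioles became 25 with DESeq2 and 0 with only the libraries compared, and ranged from 6 to 16; of the petiole libraries under water, the count was 6 without replicate 1 or 3 at 2 days, 8 without replicate 2 at 2 days and 9 without replicate 2 at 1 day. The 34 in stems became 17 without number 3 under water at 1 day and ranged from 15 to 37; of the stem libraries under water, the count was 15 without replicate 3 at 1 day or replicate 2 at 2 days, 18 without replicate 3 at 2 days, and 21 without replicate 2 at 1 day or replicate 1 at 2 days. The 0 contigs higher in air at 2 days in petioles became 1 with library totals alone, 1 with a stricter filter and 8 with DESeq2, and in stems 2 with DESeq2; without replicate 3 of stems in air at 1 day each was 1, both ranging from 0 to 1.

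Stem against petiole in air at 1 day, 4 contigs, became 2 with RLE size factors, 11 with library totals alone, 9 with DESeq2, 1 with limma-voom and 2 with only the libraries compared, and ranged from 2 to 6. At 2 days 6 became 3 with limma-voom and ranged from 2 to 7, with 2 or 3 without replicate 1 or 3 of stems or replicate 2 of petioles in air at 2 days. Under water at 1 day 4 became 7 with DESeq2, 11 with limma-voom and 0 without number 3 under water at 1 day, and ranged from 1 to 7. The 4 were all lower in stems, but DESeq2 called 1 higher and 6 lower, and limma-voom 4 higher and 7 lower. At 2 days 18 became 32 with only the libraries compared and ranged from 7 to 22, with 9 without replicate 2 of petioles or of stems under water at 2 days and 7 without replicate 3 of stems. Why these counts moved was not tested.

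Over all groups, the deviations of same-numbered libraries from their group means correlated between -0.25 and 0.43 (median 0.016 over 84 pairs of libraries), and 20 pairs were above 0.1. Every same-numbered pair was above 0.1 in 2 of 28 pairs of groups, both among petioles. With the replicate number as a block the counts were 76, 51, 75 and 38 for submergence against air (petioles at 1 and 2 days, stems at 1 and 2 days), 4 and 9 for the interaction (petioles, stems), 13 and 31 lower under water, 0 and 0 higher in air, 4 and 6 for stem against petiole in air and 5 and 16 under water (1 and 2 days). The block moved none of these counts by over 1.5 times. The smaller drop of each named contig stayed above 0 under the alternatives run. A library of 17617430 counts, the smallest, has its limit of 3 counts at 0.170 CPM.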
